A study of Mus musculus with 9 samples.

Results

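The miR-99/100 and miR-125 families were represented in these data by 5 mature mouse (mmu) miRNAs, mmu-miR-99a-5p, mmu-miR-99b-5p, mmu-miR-100-5p, mmu-miR-125a-5p and mmu-miR-125b-5p, taken by name from the 1881 mouse miRNAs on the array. Of these 5, 4 were detected on all 9 arrays and could be tested, and miR-99b-5p was detected on none. The samples were livers of inbred male C57BL/6J mice aged 20 weeks, with 3 arrays in each of 3 groups and a pool of 4 mice behind each array. Mice of the metformin group were fed chow in which fat supplied 45% of the energy for 17 weeks from 3 weeks of age, and were dosed by stomach tube with 3 mg of metformin per kg per day over the last 5 weeks, beginning at 15 weeks of age. The high fat diet group ate the same diet for as long and received saline by stomach tube in those 5 weeks. The control group ate normal chow for 17 weeks; no source used here says whether it was given saline. The dose is given as the labels state it. A p-value here measures the spread between pools, not between single mice, and in whole liver fewer cells of a type and less miRNA per cell cannot be told apart.

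A miRNA guides a silencing complex to messenger RNAs that pair with its seed, the bases near its 5′ end. The miR-99/100 family is known for repressing mTOR, the kinase that couples nutrients to growth, and related components of insulin signalling. The miR-125 family is the mammalian counterpart of the worm lin-4 miRNA and, like miR-99/100, is encoded beside let-7 genes; let-7 miRNAs repress growth-promoting genes and parts of the insulin pathway.

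The mature sequences are shown because they divide the miRNAs into 2 seed groups and show how little separates some of the probes' targets. They are RefSeq's for the mouse assembly GRCm38.p6, 5′ to 3′, with the seed (bases 2 to 8) in capitals.
miR-99a-5p: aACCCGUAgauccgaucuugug
miR-99b-5p: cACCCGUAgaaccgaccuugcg
miR-100-5p: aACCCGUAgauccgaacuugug
miR-125a-5p: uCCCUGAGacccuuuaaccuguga
miR-125b-5p: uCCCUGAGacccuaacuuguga
The let-7 miRNAs encoded beside them, which serve as cluster partners in the ratios given further on, share a seed of their own.
let-7c-5p: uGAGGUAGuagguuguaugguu
let-7e-5p: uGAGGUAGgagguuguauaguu
let-7a-5p: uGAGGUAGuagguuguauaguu

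Among the 1679 mature mouse miRNAs in the RefSeq table, the seed ACCCGUA belonged to miR-99a-5p, miR-99b-5p and miR-100-5p alone. Counting from 1 at the 5′ end, miR-100-5p differed from miR-99a-5p by 1 substitution, U16A. For miR-99b-5p the substitutions against miR-99a-5p were A1C, U11A, U16C and U21C. The seed CCCUGAG was shared by miR-125a-5p (24 bases) and miR-125b-5p (22 bases), which had their first 13 bases in common, and by miR-351-5p, miR-6367 and miR-6394, each detected on 0 arrays. The files hold no probe sequences, so how far a probe for 1 of these miRNAs also binds its near twin was not tested.

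The genes lie in 3 clusters, all on the plus strand of GRCm38.p6. On chromosome 16 the miR-99a-5p arm (chr16:77598940-77598961) begins 732 bp before the let-7c-5p arm of Mirlet7c-1 (chr16:77599672-77599693), and the miR-125b-5p arm of Mir125b-2 (chr16:77646279-77646300) begins a further 46607 bp downstream. The cluster on chromosome 17 is compact: miR-99b-5p (chr17:17830194-17830215) is followed after 172 bp by let-7e-5p (chr17:17830366-17830387) and after another 451 bp by miR-125a-5p (chr17:17830817-17830840). On chromosome 9, miR-100-5p (chr9:41531437-41531458) precedes the let-7a-2 hairpin (chr9:41536716-41536811) and Mir125b-1 (chr9:41581940-41581961), whose miR-125b-5p arm begins 50503 bp after that of miR-100-5p. Mature miR-125b-5p thus has 2 source genes, and the array cannot tell their products apart. The same holds for 2 of the let-7 partners. Mature let-7c-5p is also encoded by Mirlet7c-2 on chromosome 15, and mature let-7a-5p by Mirlet7a-1 on chromosome 13.

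On 6 of the 9 arrays, strips of columns at the left or right edge held spots of bright probes with weak or no signal. Those strips were left out of every value given here unless all spots, the scanner software's calls or the authors' deposited values are named. A spot counted as weak below 50% of a high percentile of its probe's spots, for probes where that percentile exceeded 100 units. From each edge, in steps of 4 columns, a strip ended at the first pair of steps with under 10% weak spots. Strips so defined can also hold spots of normal signal. They took 31.1% of the spots of metformin replicate 2 and none of replicates 1 and 3. In the high fat diet group they took 53.6% and 33.6% of replicates 1 and 3 and none of replicate 2. All 3 control arrays lost 41.1% to 43.8%. Of the 150 spots per array for the 5 miRNAs, 76 to 150 remained, and no spot of any array was saturated. A level is the log2 of a miRNA's background-subtracted intensity relative to the array's 75th percentile, which lay between 231.0 and 251.5 on metformin arrays, 221.3 and 323.3 on high fat diet arrays, and 192.9 and 225.3 on control arrays. Of the 9 arrays, 8 shared a slide. Its row 1 held all 3 high fat diet arrays and metformin replicate 1, and its row 2 held metformin replicates 2 and 3 and control replicates 1 and 2. Control replicate 3 was on another slide. No row therefore held both high fat diet and control arrays, so for that comparison row and diet can be separated only through the metformin arrays. All 4 of 4 hepatocyte markers (miR-122-5p, miR-192-5p, miR-194-5p and miR-148a-3p) were detected on all 9 arrays, while 3 of 6 leukocyte, 0 of 5 biliary, 0 of 3 muscle and 0 of 2 brain markers could be tested. Each muscle marker was still detected on 1 to 3 arrays and the biliary marker miR-200b-3p on 2, whereas the other biliary markers and both brain markers were detected on none. In high fat diet livers miR-1a-3p averaged -3.23 ± 2.42 and miR-133a-3p -3.12 ± 2.61 (SD, n = 3), where levels were floored at -4.62. Both were detected on only 1 array of that group, which carried most of their signal. In control livers they averaged -4.31 and -4.34. The share of muscle in the pools was not tested.

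**Figure D1:**
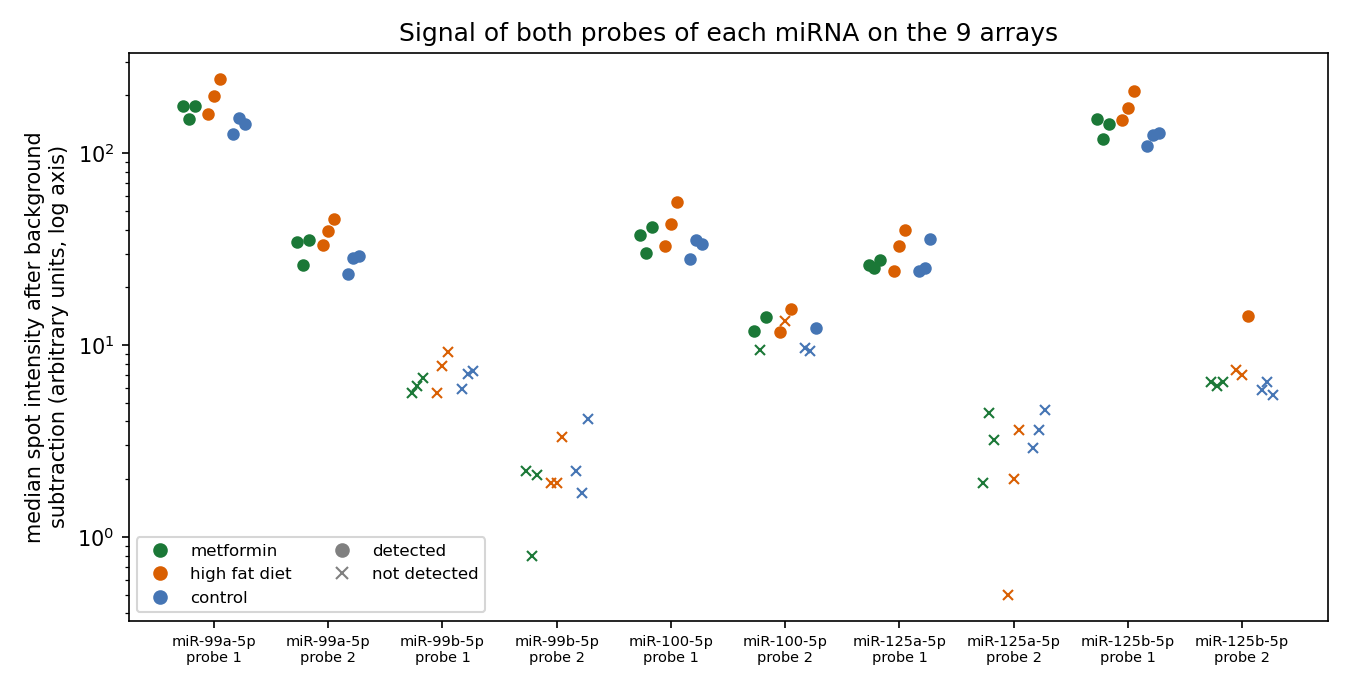
Median spot intensity after background subtraction (arbitrary units, log axis) of both probes of each miRNA, 1 point per array, coloured by group (metformin, high fat diet, control); circles are probes detected on that array and crosses are not detected. The used probes of miR-99a-5p and miR-125b-5p lie above 100 on every array, and both probes of miR-99b-5p stay below 10.

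Detection differed between the 2 probes that the array carried for each miRNA, 15 spots each. The brighter probe of miR-99a-5p read 125.2 to 244.2 intensity units and that of miR-125b-5p 108.7 to 210.9, with a median coefficient of variation between spots of 7.1% and 5.0%. The brighter probes of miR-100-5p (28 to 56 units) and miR-125a-5p (24.2 to 39.8 units) were detected on all 9 arrays as well, with spot variation of 11.6% and 14.2%. The dimmer probe was detected on 9 arrays for miR-99a-5p, 5 for miR-100-5p, 1 for miR-125b-5p and 0 for miR-125a-5p. Only for miR-99a-5p did a second probe therefore give a reading of its own on every array.

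Neither probe of miR-99b-5p was detected on any array, although miR-99b-5p comes from the same cluster as the detected let-7e-5p and miR-125a-5p. Its probes read 0.8 to 4.1 and 5.6 to 9.2 units, and 0 of 90 and 6 of 94 kept spots lay well above background. The scanner software, which uses all spots, called it on 1 of the 9 arrays, metformin replicate 3. Averaging all spots of the dimmer probe gave 34.0 units on control replicate 2 and 28.2 on control replicate 3, where the spots outside the strips had medians of 1.7 and 4.1. No difference between groups is given for miR-99b-5p. The opposite arms of the hairpins (miR-99a-3p, miR-99b-3p, miR-100-3p, miR-125a-3p, miR-125b-1-3p and miR-125b-2-3p) were also below detection, with 0 of 6 detected on any array.

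**Figure D2:**
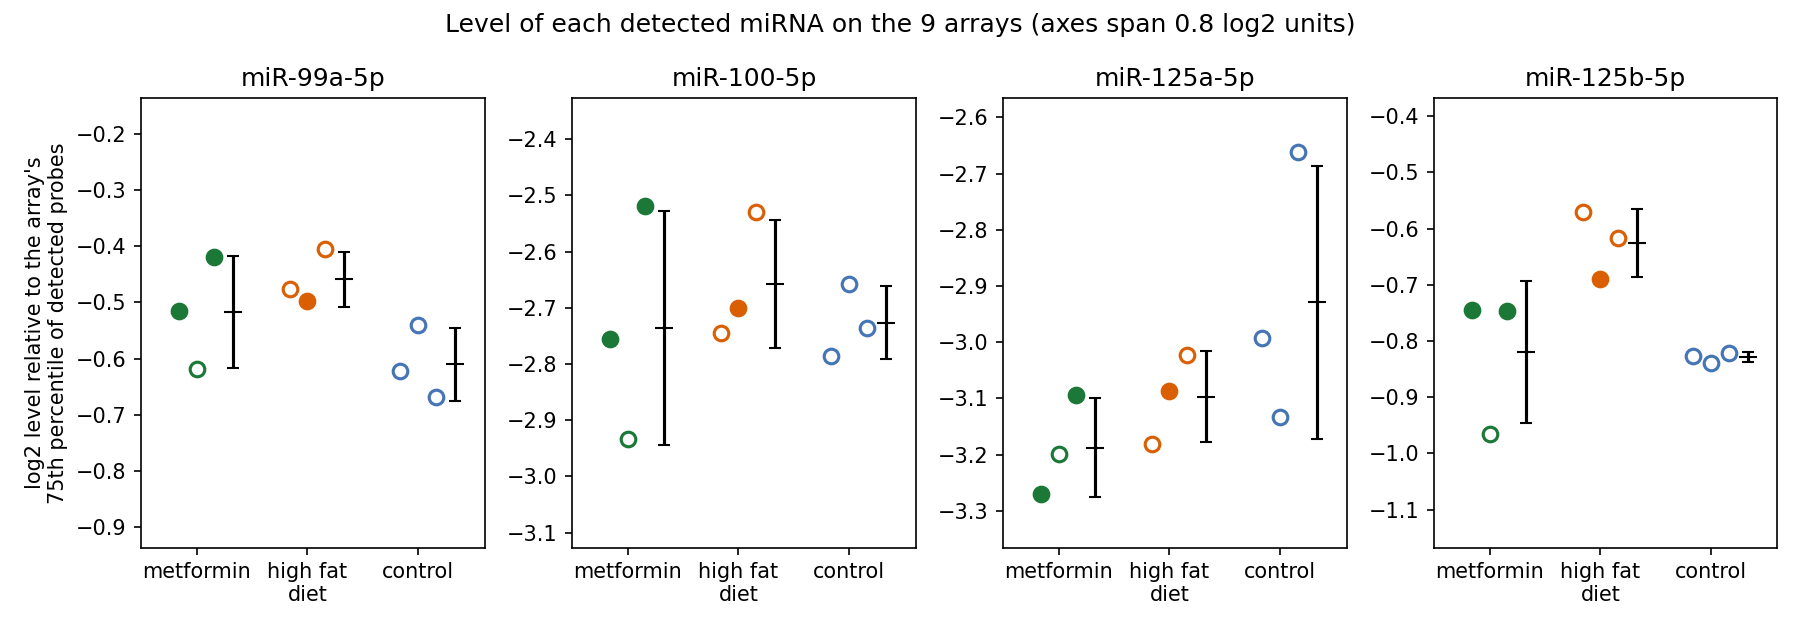
Log2 level relative to the array's 75th percentile of detected probes for the 4 detected miRNAs; points are arrays in order of replicate number, open where edge strips were left out and filled where the array had none, and bars are the mean ± SD of 3 arrays. Each axis spans 0.8 log2 units; the high fat diet arrays stand above all control arrays for miR-99a-5p and miR-125b-5p only.

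No miRNA of either family passed the threshold in any comparison. In high fat diet against control livers 0 of 4 were called, where limma called 14% of all 143 miRNAs tested. In metformin against high fat diet livers 0 of 4 were called against 1.4% of all tested, and in metformin against control livers 0 of 4 against 1.4%. The counts over all tested miRNAs were 20, 2 and 2 in the same order of comparisons. Calls rest on an adjusted p under 0.05 by Benjamini-Hochberg over all 143.

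The miR-99/100 family is given first. Levels of miR-99a-5p were -0.52, -0.62 and -0.42 in metformin replicates 1, 2 and 3, -0.48, -0.50 and -0.40 in high fat diet replicates, and -0.62, -0.54 and -0.67 in control replicates. Every high fat diet array lay above every control array, while metformin arrays overlapped both other groups. The high fat diet mean was 0.15 above control on the log2 scale, a 1.11-fold difference (standard error 0.087, 95% interval -0.04 to 0.34, limma adjusted p = 0.222). The dimmer probe of miR-99a-5p gave 0.18, again with no overlap, at an exact permutation p = 0.1 (two-sided, n = 3 each), the smallest that 3 against 3 arrays allow. Metformin was 0.06 below high fat diet (interval -0.25 to 0.13, adjusted p = 0.801) and 0.09 above control (interval -0.10 to 0.29, adjusted p = 0.552).

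For miR-100-5p the levels were -2.75, -2.93 and -2.52 in metformin livers, -2.74, -2.70 and -2.53 in high fat diet livers, and -2.79, -2.66 and -2.74 in control livers. All 3 groups overlapped. The means were -2.74 ± 0.21, -2.66 ± 0.11 and -2.73 ± 0.06 (SD, n = 3) in metformin, high fat diet and control livers, and the differences were smaller than the spread between metformin pools. High fat diet stood 0.07 above control (interval -0.19 to 0.32, adjusted p = 0.712), metformin 0.08 below high fat diet (interval -0.33 to 0.18, adjusted p = 0.801) and metformin 0.01 below control (interval -0.26 to 0.25, adjusted p = 0.952). These signs turned under several other settings, given in the closing section.

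In the miR-125 family, miR-125b-5p had the smallest spread in control livers. Its levels were -0.75, -0.97 and -0.75 on metformin arrays, -0.57, -0.69 and -0.62 on high fat diet arrays, and -0.83, -0.84 and -0.82 on control arrays. High fat diet arrays lay above all arrays of both other groups, and metformin arrays fell on both sides of the control arrays. The high fat diet mean exceeded control by 0.20, a 1.15-fold difference (standard error 0.0897, interval 0.00 to 0.40, limma adjusted p = 0.136). Metformin was 0.19 below high fat diet (interval -0.39 to 0.01, adjusted p = 0.435) and 0.01 above control (interval -0.19 to 0.21, adjusted p = 0.940). Of all 143 tested, 71 miRNAs had a smaller absolute difference than miR-125b-5p between high fat diet and control, so its size was the middle one for this comparison, and 113 had a smaller one between metformin and high fat diet.

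The other member of that seed group, miR-125a-5p, was ordered differently. Its levels were -3.27, -3.20 and -3.09 in metformin livers, -3.18, -3.09 and -3.02 in high fat diet livers, and -2.99, -3.13 and -2.66 in control livers. Metformin means were lowest at -3.19 ± 0.09, high fat diet means lay at -3.10 ± 0.08, and control means were highest at -2.93 ± 0.24 (SD, n = 3). Every pair of groups overlapped, metformin and control included. Control replicate 3, the array on its own slide, was the highest of the 9. The difference of metformin from control was -0.26, a 0.836-fold level (standard error 0.122, interval -0.53 to 0.01, limma adjusted p = 0.223). High fat diet was 0.17 below control (interval -0.44 to 0.10, adjusted p = 0.334), and metformin was 0.09 below high fat diet (interval -0.36 to 0.18, adjusted p = 0.777). Without control replicate 3 and its slide, the metformin difference from control shrank to -0.12 and the high fat diet difference to -0.03. In the authors' deposited values, from which the edge strips were not left out, the metformin difference from control was -0.61 (limma adjusted p = 0.377).

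Non-overlap of groups was common on these arrays. Between high fat diet and control livers, 2 of the 4 miRNAs had non-overlapping higher levels, where 21.7% of all tested did, and 0 had non-overlapping lower levels, where 15.4% did. Between metformin and high fat diet livers 1 of 4 was lower without overlap against 11.9% of all tested, and 0 higher against 8.39%. Between metformin and control livers 0 of 4 were separated, against 12.6% higher and 13.3% lower of all tested. The median difference of the 4 miRNAs was 0.11 between high fat diet and control, -0.08 between metformin and high fat diet and 0.00 between metformin and control, beside 0.03, -0.06 and -0.00 over all tested.

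**Figure D3:**
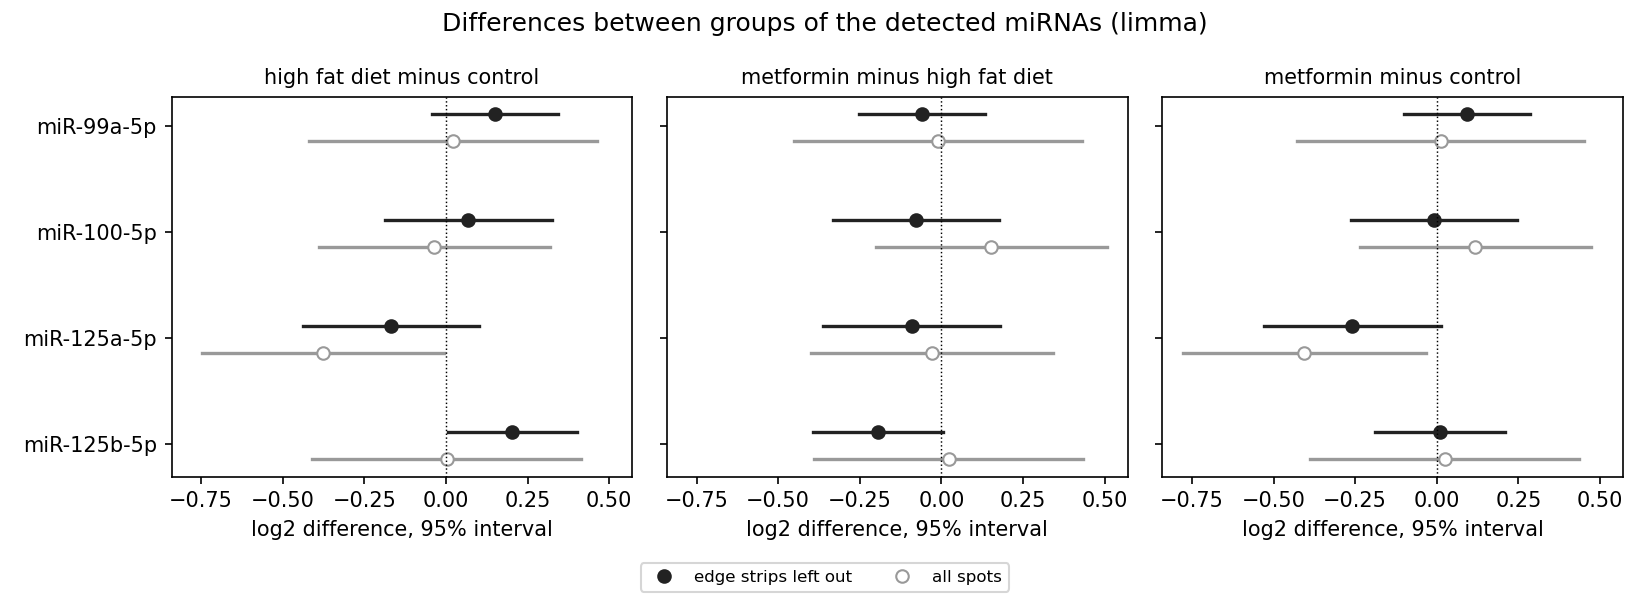
Log2 differences between groups with their 95% limma intervals for the 4 detected miRNAs, with edge strips left out (filled) and with all spots (open). The interval of miR-125b-5p between high fat diet and control begins just above 0 with strips left out, and with all spots it is centred at 0.00.

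Retaining all spots widened the intervals and moved several values. The high fat diet difference from control became 0.02 for miR-99a-5p (adjusted p = 0.985) and 0.00 for miR-125b-5p (adjusted p = 0.999), and no group was separated for either. For miR-125a-5p it became -0.38 (interval -0.75 to -0.01, adjusted p = 0.206) and the metformin difference from control -0.41 (interval -0.78 to -0.03, adjusted p = 0.388), with all control arrays above both other groups. With all spots the median difference of all miRNAs between high fat diet and control itself moved to -0.22. Relative to that median, high fat diet stood 0.24 above control for miR-99a-5p, 0.22 above for miR-125b-5p and 0.16 below for miR-125a-5p. With the strips left out the same quantities were 0.12, 0.18 and -0.19. With all spots limma called 0 of the 4 between high fat diet and control, where it called 6.47% of 139 tested. Then 1 of the 4 was lower without overlap in high fat diet than in control livers, against 19.4% of all tested, and 0 were higher, against 3.6%. Between metformin and control livers 1 was lower, against 9.35%, and 0 higher, against 12.2%. Between metformin and high fat diet livers none was separated, against 20.9% higher and 1.44% lower of all tested.

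Slide position could be held constant only in part. Within row 1, metformin replicate 1 differed from the 3 high fat diet arrays by -0.06 for miR-99a-5p, -0.10 for miR-100-5p, -0.17 for miR-125a-5p and -0.12 for miR-125b-5p. Within row 2, metformin differed from control by 0.06 for miR-99a-5p, -0.01 for miR-100-5p, -0.08 for miR-125a-5p and -0.02 for miR-125b-5p. A fit with row as a block used the arrays of the shared slide only, without control replicate 3. Its high fat diet difference from control was 0.12 for miR-99a-5p, 0.09 for miR-100-5p, 0.09 for miR-125a-5p and 0.10 for miR-125b-5p. That of miR-125a-5p thus turned its sign, but on the same arrays without a row term it was already -0.03. The median of all miRNAs in the fit with row as a block was 0.10.

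The let-7 family, whose genes neighbour these miRNAs in the genome, was tested whole, 9 of 9, and 0 were called in any comparison. Their median difference was 0.07 between high fat diet and control, -0.02 between metformin and high fat diet and 0.06 between metformin and control. The partner of miR-99a, let-7c-5p, differed by 0.02, 0.04 and 0.06 in the same order, and let-7a-5p by 0.10, 0.00 and 0.10. The lowest metformin value belonged to let-7e-5p, the partner of miR-125a, at -0.19 against high fat diet (adjusted p = 0.435) and -0.24 against control (adjusted p = 0.189). Its levels were -2.04, -2.11 and -1.96 on metformin arrays, below the -1.87, -1.82 and -1.85 of high fat diet arrays and the -1.88, -1.89 and -1.63 of control arrays. Both detected products of the chromosome 17 cluster therefore had their lowest mean in metformin livers, and neither passed the threshold. With all spots the let-7e-5p arrays overlapped, at -0.0078 against high fat diet (adjusted p = 0.972) and -0.087 against control (adjusted p = 0.936). The let-7 medians then became -0.15, 0.12 and 0.06 over 8 tested, so the first pair turned sign, and let-7a-5p stood 0.46 below control in high fat diet livers (adjusted p = 0.0975). Outside the clusters, miR-10a-5p, whose sequence resembles the miR-99/100 family outside the seed, differed by -0.05, 0.12 and 0.08, and miR-10b-5p was detected on 0 arrays.

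Ratios of a family member to the let-7 miRNA of its cluster were tested by an exact permutation test over arrays. There were 12 tests in all, with 0.1 as the smallest p possible. Mature let-7c-5p and let-7a-5p also come from genes outside these clusters, so ratios and correlations with them do not compare products of a single cluster. The log2 ratio of miR-99a-5p over let-7c-5p was -3.10 ± 0.01 in metformin, -3.00 ± 0.07 in high fat diet and -3.13 ± 0.06 in control livers (SD, n = 3). High fat diet lay 0.13 above control and metformin 0.10 below high fat diet, both without overlap (exact p = 0.1, adjusted 0.4). With all spots these became 0.17 and -0.39. For miR-125a-5p over let-7e-5p the ratio differed by -0.12 between high fat diet and control (exact p = 0.2), by 0.10 between metformin and high fat diet (exact p = 0.2) and by -0.02 between metformin and control (exact p = 0.8). With all spots the high fat diet and metformin ratios stood 0.30 and 0.32 below control. The ratio of miR-125b-5p over let-7a-5p was 0.20 lower in metformin than in high fat diet livers without overlap (exact p = 0.1), and the remaining ratios of miR-125b-5p and miR-100-5p over let-7a-5p had an exact p of 0.2 or above. No adjusted p was below 0.4. A ratio of 2 probes shows unequal change only, not which of them moved.

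**Figure D4:**
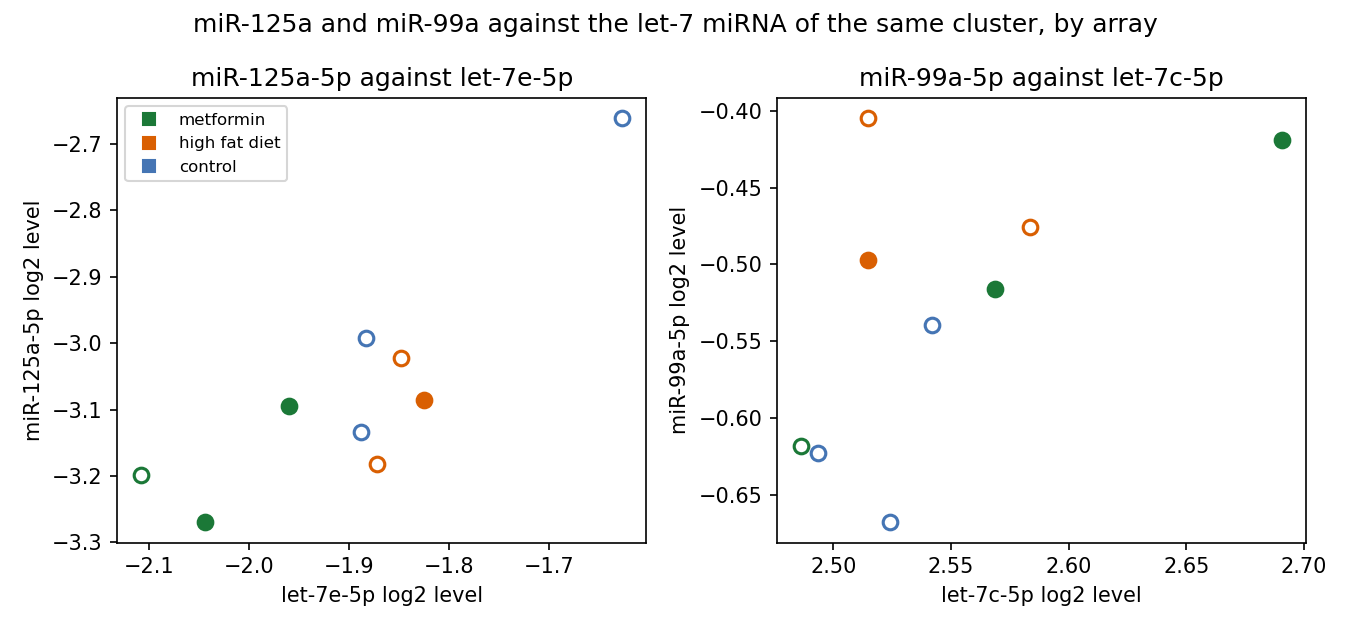
Log2 level of miR-125a-5p against let-7e-5p (left) and of miR-99a-5p against let-7c-5p (right), 1 point per array, coloured by group and open where edge strips were left out. The array at the top right of the left panel is control replicate 3.

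Across the 9 arrays, its cluster partner let-7e-5p ranked 1 in likeness to miR-125a-5p among the 114 miRNAs outside both families that were detected on all arrays. Pearson's r with let-7e-5p was 0.861 and Spearman's rho 0.767. It was 0.884 for deviations from the group means, 0.549 without the 2 arrays farthest from the median, and -0.104 with all spots, so the value depended on which spots were read. The other partners ranked lower: let-7a-5p was in place 8 for miR-100-5p (r = 0.545) and place 18 for miR-125b-5p (r = 0.591), and let-7c-5p was in place 22 for miR-99a-5p (r = 0.577). The partner of miR-125b-5p in its chromosome 16 cluster, let-7c-5p, was in place 51 (r = 0.331, and 0.023 without the 2 farthest arrays). For deviations from the group means, miR-125b-5p had r = 0.772 with let-7c-5p and 0.772 with let-7a-5p. There miR-99a-5p had 0.718 with let-7c-5p and miR-100-5p had 0.585 with let-7a-5p. Without the 2 farthest arrays r was 0.876 for miR-99a-5p with let-7c-5p. With let-7a-5p it was then 0.488 for miR-100-5p and 0.248 for miR-125b-5p. When all spots were read, r with let-7a-5p was 0.325 for miR-100-5p and -0.002 for miR-125b-5p. In that reading r with let-7c-5p was 0.178 for miR-99a-5p and 0.337 for miR-125b-5p. These correlations describe 9 arrays that share scaling, slide and 3 groups.

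Among the family members themselves, miR-99a-5p correlated with miR-100-5p at r = 0.757 and with miR-125b-5p, encoded in part in the same cluster, at 0.735, and miR-100-5p with miR-125b-5p at 0.566. By contrast miR-125a-5p correlated at 0.141 with miR-100-5p, -0.101 with its seed twin miR-125b-5p and -0.445 with miR-99a-5p. The median over all pairs of the 118 miRNAs was 0.057. With all spots, r was 0.262 for miR-99a-5p with miR-100-5p and 0.350 for miR-99a-5p with miR-125b-5p, and for miR-125a-5p it was -0.08 with miR-100-5p, -0.425 with miR-125b-5p and -0.138 with miR-99a-5p.

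Besides these, miR-99a-5p was most like miR-199a-3p (r = 0.868), a marker of stellate and mesenchymal cells, and miR-151-5p (r = 0.849). The closest to miR-100-5p were miR-25-3p (r = 0.776) and the endothelial marker miR-126a-3p (r = 0.703), those to miR-125b-5p were miR-378a-3p (r = 0.858) and miR-152-3p (r = 0.786), and that to miR-125a-5p after let-7e-5p was miR-511-3p (r = 0.624). These likenesses changed with the spots read. With all spots, r for miR-99a-5p was 0.572 with miR-199a-3p and -0.064 with miR-151-5p, and miR-130a-3p came closest (r = 0.756). For miR-125b-5p it was -0.331 with miR-378a-3p and -0.275 with miR-152-3p, and miR-26a-5p came closest (r = 0.874). With all spots miR-25-3p, miR-126a-3p and miR-511-3p were not detected on every array and were not compared. Closest to miR-100-5p was then miR-151-5p (r = 0.853). Closest to miR-125a-5p were then miR-30a-3p (r = 0.827) and the hepatocyte marker miR-192-5p (r = 0.793). Of the stellate and mesenchymal list, 3 of 6 could be tested and miR-214-3p, miR-143-3p and miR-145a-5p were detected on no array. The summed linear level of the 3 tested markers was 0.334 to 0.348 of the scaling percentile on metformin arrays, 0.36 to 0.426 on high fat diet arrays and 0.305 to 0.315 on control arrays. Between high fat diet and control, miR-199a-3p rose by 0.31 (limma adjusted p = 0.0301), in the same direction as miR-99a-5p and miR-125b-5p. That direction was not particular to this list. The hepatocyte markers miR-148a-3p, miR-194-5p and miR-192-5p were higher by 0.37 (limma adjusted p = 0.0624), 0.22 and 0.08, and miR-122-5p was lower by 0.10. Endothelial miR-126a-3p was higher by 0.18. With all spots 0 of the 3 tested stellate and mesenchymal markers were called, while all 3 still had higher means in high fat diet than in control livers. Of the hepatocyte markers 1 was then higher and 3 were lower, and miR-126a-3p was 0.42 lower. The difference of miR-199a-3p was then 0.57 (limma adjusted p = 0.158), with overlapping arrays. On the endothelial list, 1 of 2 was tested, and miR-126a-3p had a linear level of 2.69 to 3.28 in metformin, 3.13 to 3.19 in high fat diet and 2.62 to 2.93 in control livers. Erythroid miR-451a had 0.26 to 0.303, 0.504 to 0.695 and 0.337 to 0.915 in the same order of groups. The 3 tested leukocyte markers summed to 0.304 to 0.332, 0.332 to 0.399 and 0.308 to 0.392, and the 4 hepatocyte markers to 107 to 120, 98 to 110 and 104 to 117. The part of other cell types in the levels of these miRNAs was not tested.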

How the data were processed

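Per the file headers, the deposited scanner files hold spot intensity after background subtraction, unscaled, from Agilent Feature Extraction 11.5.1.1, whereas the submitters' processing notes name version 10.7. The authors also deposited log2 values for each miRNA, which served as an alternative. Per the labels' protocols, RNA from 15 mg of liver was labelled with Cy3.

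Edge strips were left out, the median was taken over a probe's other spots that bore no non-uniformity mark, and 425 of 4415 probes with under 3 spots on any array were dropped. Detection required over a 0.5 share of spots well above background. Each array was scaled to its 75th percentile across the 187 probes detected throughout, floored at 0.0406 (log2 -4.62) and log2-transformed. Each miRNA was read by the brightest of its probes that were kept, so a brighter probe with too few spots was not used. For example, let-7f-5p averaged -1.07 in control livers, but 1.485 with all spots. The 143 miRNAs detected throughout at least 1 group were tested with limma 3.58.1 in R 4.3.3 as 1 model of 3 group means. Tests were two-sided and adjusted by Benjamini-Hochberg with a threshold of 0.05. The code was tested on simulated data. The number of arrays limits the precision; their total signal is not a read depth.

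The miRNAs named are the 5 family members, their opposite arms, the let-7 family, seed sharers and near relatives, and the 2 miRNAs most correlated with each detected member. The members, lists and the choice to leave out strips were made with earlier results of these data known. Labels give the groups the same replicate numbers, but no pairing. The planned normexp alternative took median spot intensity where the plan named mean spot intensity.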

Additional observations from a re-analysis of the deposited data

How the results depend on the processing

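The unadjusted p was under 0.05 for 51, 13 and 30 of 143 miRNAs in high fat diet against control (A), metformin against high fat diet (B) and metformin against control (C). Calls over all miRNAs were 20, 2 and 2 in A, B and C. They were 9, 0 and 0 with all spots, 0 in B and C with normexp, 1, 0 and 98 with the percentile over all probes, 0, 1 and 1 from the authors' deposited values, 0, 0 and 0 without a filter, 31, 7 and 4 with array weights, 39, 1 and 7 with slide as a block, and 0, 0 and 5 with row as a block. They were 0 within row 1 (B) and row 2 (C) and 0 in B with the mean of detected probes. The fits with slide or row as a block, and those within a row, used the shared slide only, without control replicate 3. With limma, unadjusted p values under 0.05 numbered 15 and 15 with all spots and 11 and 34 with normexp in B and C. The replicate block gave 22, 0 and 3 calls; same-numbered arrays had deviations correlating between -0.236 and 0.433, so the numbers were not taken to pair the arrays, and the block changed no call of a family member.

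Family members passed in 2 settings. With normexp, 1 was called in A: miR-125a-5p at -0.24 (limma adjusted p = 0.0347), with the median of all miRNAs at -0.13. That setting called 23 of all 143 miRNAs tested in A, 21 of them lower. With the percentile over all probes, 3 were called in C, miR-99a-5p at 0.90, miR-100-5p at 0.80 and miR-125b-5p at 0.82, where the median of all miRNAs moved to 0.80. That setting also gave 0.21, 0.19, 0.18 and 0.079 in B for miR-99a-5p, miR-100-5p, miR-125a-5p and miR-125b-5p, and 0.37 in A and 0.55 in C for miR-125a-5p; its medians of all miRNAs were 0.56 in A and 0.21 in B. Signs also turned for miR-100-5p (all spots -0.035 in A, 0.15 in B and 0.12 in C; normexp -0.13 in A and 0.013 in B; quantile 0.047 and authors' values 0.30 in C), miR-125b-5p (all spots 0.022 in B; in C normexp -0.0093, quantile -0.027, authors' table -0.16, row block and row 2 -0.023), miR-125a-5p (row block 0.089 in A, normexp 0.042 in B) and miR-99a-5p (authors' table -0.20 in C). With all spots the cluster ratios became -0.22 for miR-99a-5p in C, -0.021 for miR-125a-5p in B, 0.42 in A and 0.41 in C for miR-100-5p, and 0.32 in C for miR-125b-5p. Moves of over 1.5 times without a change of sign included, from the authors' values, miR-100-5p at 0.45 in A and miR-125a-5p at -0.30, -0.31 and -0.61 in A, B and C; under quantile normalization, miR-99a-5p at 0.049 and miR-125b-5p at 0.059 in A; and with all spots the ratios -0.39 for miR-99a-5p in B, -0.30 and -0.32 for miR-125a-5p in A and C, and 0.46 for miR-125b-5p in A. The cause of these moves was not tested.

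Leaving out each array in turn gave 6 to 40 calls in A, 0 to 3 in B and 1 to 8 in C, and 0 of a family member. In A, B and C the differences ran from 0.12 to 0.24, -0.11 to -0.01 and 0.04 to 0.17 for miR-99a-5p, 0.00 to 0.14, -0.19 to 0.021 and -0.12 to 0.089 for miR-100-5p, -0.25 to -0.03, -0.14 to -0.05 and -0.36 to -0.12 for miR-125a-5p, and 0.20 to 0.30, -0.23 to -0.12 and -0.027 to 0.099 for miR-125b-5p. Ratios ran from -0.13 to 0.061 in A and -0.17 to 0.017 in B for miR-100-5p, -0.079 to 0.027 in C for miR-125a-5p and -0.0009 to 0.054 in C for miR-99a-5p. Relative to the median of all miRNAs, miR-99a-5p was above 0 in A under all 21 settings compared and miR-125a-5p below 0 in A (21 settings) and C (22 settings). These settings include the main reading, re-read the same arrays and in part give the same value, so their number does not measure support. With row as a block the values in A were 0.022 for miR-99a-5p and -0.008 for miR-125a-5p.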
